A study of Mus musculus with 38 samples.

Results

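The 9 genes described here are Egr1, Egr2, Egr3, Egr4, Nr4a1, Nr4a2, Nr4a3, Npas4 and Arc. They are a set of neuronal activity-induced genes, chosen by name with earlier results of these data known. Each was found once among the 57010 gene IDs of the deposited count table, and each passed the filter on low counts in both sexes. The table holds 38 bulk RNA-seq libraries of the mouse medial prefrontal cortex, 1 library per animal, in 8 groups. Mutant mice carry the Cre recombinase driven by the somatostatin gene together with a conditional allele (SSTCre:γ2f/f). Control mice carry the same Cre without the conditional allele (SSTCre), so Cre is common to all 8 groups and the allele differs only between genotypes. Stressed mice went through 21 days of chronic variable stress (CVS) and unstressed mice did not (NS), and the protocol gives collection at 24 hours after the last stressor. The males comprised 4 stressed mutants, 3 unstressed mutants, 6 stressed controls and 5 unstressed controls, and each of the 4 female groups held 5 animals. Age and strain background are not given in the labels used here, and animal names run in separate series for males and females, so sex and cohort cannot be told apart.

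The study asks how GABAergic control by way of somatostatin interneurons bears on the response of the prefrontal transcriptome to chronic stress. Immediate early genes are transcribed within minutes of synaptic activity through calcium and MAP kinase signalling, with CREB and the serum response factor acting at their promoters, and their transcripts decay within hours. Egr and Nr4a genes and Npas4 encode transcription factors that pass the signal on to later genes, while Arc encodes a protein that acts at synapses directly. Somatostatin interneurons inhibit the dendrites of pyramidal cells, in which these genes are induced most strongly in cortex.

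Libraries held 17.6 M to 27.5 M assigned counts. All 12 markers of excitatory cortical neurons were detected in every group. In 3 male libraries the 6 markers of the olfactory bulb summed to higher levels than elsewhere, with 29.0 CPM (counts scaled to a common library size by TMM, per M) in mutant NS replicate 2, 31.6 CPM in its replicate 3 and 21.7 CPM in control CVS replicate 1, against 6.00 to 9.89 CPM in all others. These libraries are those of high Cdhr1, a marker of this list. Most markers of the list did not share the rise. Of the 4 tested in male mutant NS against control NS libraries, 1 had a positive and 3 a negative fitted value (median log2 difference -0.23). A single gene ID took 4.21% to 7.83% of the counts in female libraries and at most 0.406% in male libraries, and CPM values were therefore scaled within a sex.

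The Egr family consists of zinc-finger transcription factors that bind GC-rich sites. Egr1, the member most used as a marker of plasticity and memory consolidation, had the highest mean level per kb of the family in each sex, with raw counts of 3330 to 11260 in males and 3800 to 7604 in females. Divided by exon length, its level averaged 70.0 ± 21.0 CPM per kb in males and 63.9 ± 9.56 CPM per kb in females (SD over 18 and 20 libraries). Egr3, needed for muscle spindle development, stood close to it at 61.0 ± 10.2 CPM per kb in males and 54.4 ± 6.80 CPM per kb in females. Egr4 averaged 28.8 ± 8.84 and Egr2, known for hindbrain patterning and Schwann cell myelination, 2.78 ± 1.86 CPM per kb in males. In females Egr4 averaged 30.8 ± 3.25 and Egr2 2.57 ± 0.843 CPM per kb. The family thus held both genes of high and genes of low level, and raw counts of Egr2 went as low as 43 in a female library and 57 in a male library.

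The Nr4a genes encode orphan nuclear receptors whose output is set largely by their amount. Nr4a1 averaged 32 ± 12.5 CPM per kb in males and 28.5 ± 6.04 CPM per kb in females, Nr4a3 6.68 ± 1.56 in males and 6.10 ± 1.26 in females, and Nr4a2, best known for its need in midbrain dopamine neurons, 2.22 ± 0.438 in males and 1.93 ± 0.476 in females. Npas4, a basic helix-loop-helix factor induced by calcium influx that sets the number of inhibitory synapses in mouse neurons, averaged 6.18 ± 2.46 CPM per kb in males and 4.63 ± 1.33 CPM per kb in females. Arc, whose messenger RNA travels to dendrites and whose protein drives the internalisation of AMPA receptors, averaged 68.8 ± 45.3 CPM per kb in males and 68.6 ± 21.2 CPM per kb in females. In each group the order of levels per kb placed Egr1, Arc and Egr3 in the first 3 places, Nr4a1 and Egr4 in the next 2, Nr4a3 and Npas4 after them, and Egr2 and Nr4a2 last. Within these 4 tiers neighbouring genes overlapped over the libraries of a group, with 3 exceptions: Egr3 lay above Arc without overlap in male mutant CVS libraries, Egr1 lay above Egr3 in female mutant CVS libraries, and Nr4a3 lay above Npas4 in female control NS libraries. The step between Egr4 or Nr4a1 and the next lower gene was free of overlap in all 8 groups.

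Of the 9 genes, 6 had a promoter entry in RefSeq (assembly GRCm38.p6), whose build is older than the GRCm39 of the counts. The 150 bases before the start site are shown for Egr2, Nr4a1 and Npas4, because in males these 3 genes varied most between libraries among those with an entry. Capitals mark TGACG, the core of the cAMP response element, on either strand, and in Egr2 also the CArG box, the site of the serum response factor. The Egr2 window is chr10:67537719-67537868 on the plus strand, the Nr4a1 window chr15:101266696-101266845 on the plus strand and the Npas4 window chr19:4989972-4990121 on the minus strand.
Egr2: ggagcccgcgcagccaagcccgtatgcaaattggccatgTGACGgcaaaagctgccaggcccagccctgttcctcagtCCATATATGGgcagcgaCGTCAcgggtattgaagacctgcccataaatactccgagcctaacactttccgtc
Nr4a1: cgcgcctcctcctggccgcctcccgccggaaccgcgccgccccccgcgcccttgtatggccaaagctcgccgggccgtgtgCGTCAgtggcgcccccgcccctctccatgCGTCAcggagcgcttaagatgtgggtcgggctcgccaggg
Npas4: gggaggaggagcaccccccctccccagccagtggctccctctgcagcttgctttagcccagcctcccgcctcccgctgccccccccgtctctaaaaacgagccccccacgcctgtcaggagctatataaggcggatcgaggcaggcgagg
This core was present in 5 of the 6 windows (Egr2, Egr4, Nr4a1, Nr4a2 and Nr4a3), and in 13.3% of 32851 RefSeq promoter windows of the same length. The full palindrome TGACGTCA, which contains the core, was in none of the 6 and in 1.36% of all windows. The CArG box was in Egr2 alone among the 6 and in 0.916% of all windows. A TATA box, read as TATAAA or TATATA on either strand, was in Egr4 and Npas4 and in 9.48% of all windows. The Npas4 window lies 345 bases from the nearest GENCODE start of that gene and the Nr4a3 window 152 bases, while those of the other 4 coincide with it.

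Relative to genes of similar level, the spread between libraries of a group was wide for all 9 genes. edgeR's biological coefficient of variation (BCV), the relative spread between replicates left after counting noise, was highest for Arc at 0.546 and Egr2 at 0.511 in males, and for Egr2 at 0.344 and Arc at 0.317 in females. Npas4 had 0.370 in males and 0.252 in females, and Nr4a1 0.330 and 0.196. Values were smallest for Egr3 at 0.167 in males and Egr4 at 0.0922 in females. The median over all genes tested was 0.0931 in males and 0.0833 in females. Among all genes tested, the percentile ran from 72.4 (Egr3) to 99.5 (Arc) in males and from 54.8 (Egr4) to 98.4 (Egr2) in females. Among genes within 0.5 log2 CPM of its own level, each of the 9 genes stood at or above the 94.9th percentile of BCV in males and the 96.8th percentile in females. The median coefficient of variation of CPM over the 9 genes, computed within a group, was highest in male mutant NS libraries at 36.1% (n = 3) and lowest in female mutant CVS libraries at 14.3% (n = 5).

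**Figure D1:**
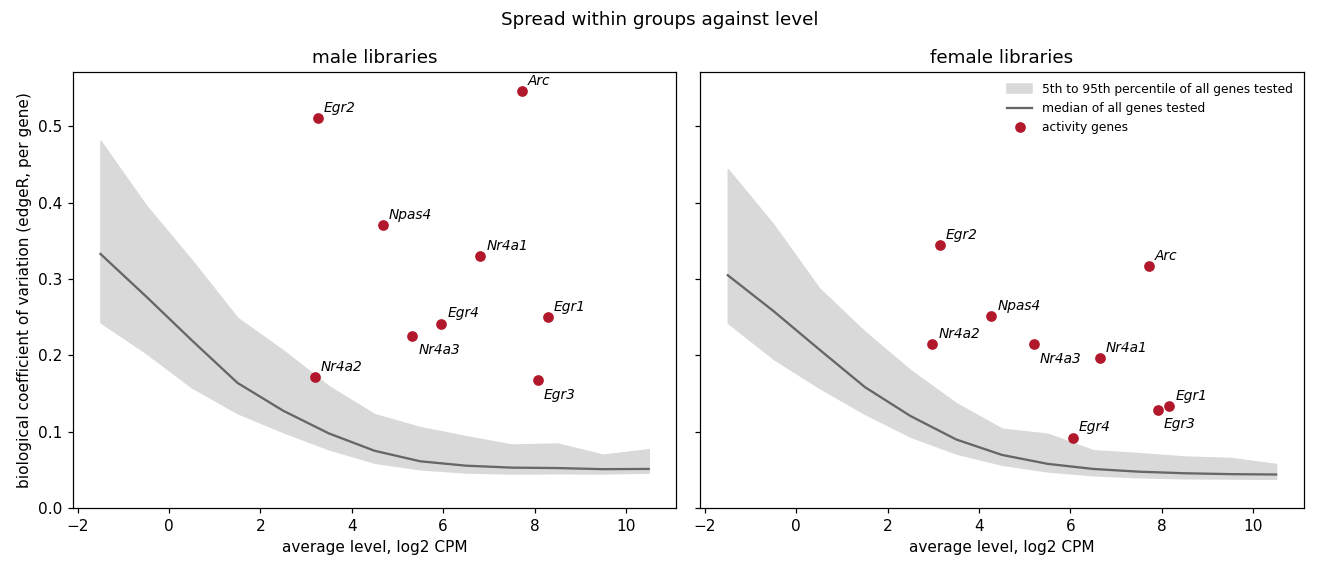
Biological coefficient of variation per gene (vertical axis, edgeR) against average level in log2 CPM (horizontal axis) for male and female libraries. Red points are the 9 activity genes, the line is the median and the grey band the 5th to 95th percentile of all genes tested. Arc and Egr2 lie highest in both panels, at 0.546 and 0.511 in males and 0.317 and 0.344 in females.

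Male mutant NS libraries were compared with male control NS libraries to ask how the genotypes differ without stress. All 9 genes had lower fitted values in mutants, with a median of -0.66 on the log2 scale against -0.00145 over all genes tested, and none passed the test. The 9 genes varied together between libraries of a group, with a median Pearson's r over pairs of 0.707 in males and 0.617 in females. Counts over the 9, here and below, are therefore not counts of independent genes. The largest differences were in Egr2 at -1.35 ± 0.572 (SE), Arc at -1.27 ± 0.614, Npas4 at -0.82 ± 0.398, Egr1 at -0.69 ± 0.271 and Egr4 at -0.66 ± 0.263. In bulk tissue, fewer cells that express a gene and less RNA per cell cannot be told apart. Markers of several other cell types also had negative fitted values here, none called, among them those of astrocytes (0 of 8 positive, median -0.13), oligodendrocytes and myelin (0 of 8 positive, median -0.17) and blood (0 of 5 positive, median -0.46). No marker of these 3 lists was at 0 in all libraries of a group. The summed level spanned 3883 to 4755 CPM in mutant NS libraries and 4545 to 5053 CPM in control NS libraries for astrocytes, 1132 to 1856 CPM in mutant NS libraries and 1519 to 1812 CPM in control NS libraries for oligodendrocytes, and 75.9 to 106 CPM in mutant NS libraries and 87.1 to 178 CPM in control NS libraries for blood. Excitatory neuron markers had 5 of 12 positive, median -0.02, and the part of these cell types in the result was not tested.

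Arc had 66.9, 316 and 56.1 CPM in male mutant NS replicates 1 to 3, against 294, 459, 435, 142 and 434 CPM in male control NS replicates 1 to 5. The raw counts of Arc were 1341, 6470 and 1078 in the mutants and 6872, 9367, 9443, 3528 and 8719 in the controls. Mutant replicate 2 stood far above the other mutants and inside the control range, and control replicate 4 stood far below the other controls. Egr2 had 4.19, 11.3 and 2.96 CPM in male mutant NS libraries, against 8.16, 19.0, 24.1, 5.91 and 22.2 CPM in male control NS libraries. Again mutant replicate 2 was the high one, and control replicates 1 and 4 were the low ones, so the groups overlapped. Npas4 had 15.4, 33.3 and 11.4 CPM in male mutant NS libraries, against 26.2, 45.7, 37.7, 27.2 and 40.9 CPM in male control NS libraries. Egr1 had 222, 346 and 173 CPM in male mutant NS libraries, against 274, 469, 519, 267 and 461 CPM in male control NS libraries. The same libraries were high and low for both genes, and control replicates 1 and 4 were the 2 lowest of their group for all 9 genes.

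Nr4a1 averaged 97.8 ± 62.6 CPM in male mutant NS libraries and 150.2 ± 50.2 CPM in male control NS libraries (SD, n = 3 and 5), a fitted difference of -0.61 ± 0.358. Egr3 differed least, at -0.17 ± 0.178, with Nr4a2 at -0.25 ± 0.192 and Nr4a3 at -0.26 ± 0.243. In edgeR's quasi-likelihood F test, Benjamini-Hochberg adjusted, 0 of 9 genes were called, with adjusted p from 0.772 to 0.972, against 0.0174% of 17212 genes tested. At an unadjusted p under 0.05 there were 3 (Egr1, Egr2 and Egr4), against 6.13% of all genes, and DESeq2 and limma voom called 0 as well. Without mutant replicate 2 the fitted difference was -2.52 for Arc, -2.14 for Egr2, -1.40 for Npas4 and -1.28 for Nr4a1, and the lowest adjusted p of the 9 was 0.281. That library was the highest mutant for these genes, so leaving it out enlarged the differences. Fits of this comparison without a low mutant are not given here. Mutant replicates 2 and 3 are also those with the high olfactory marker sums, and without them and control CVS replicate 1 Arc was at -2.40 ± 0.766 and Egr2 at -1.91 ± 0.924, with 1 mutant library left and assumed to vary like the other groups.

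**Figure D2:**
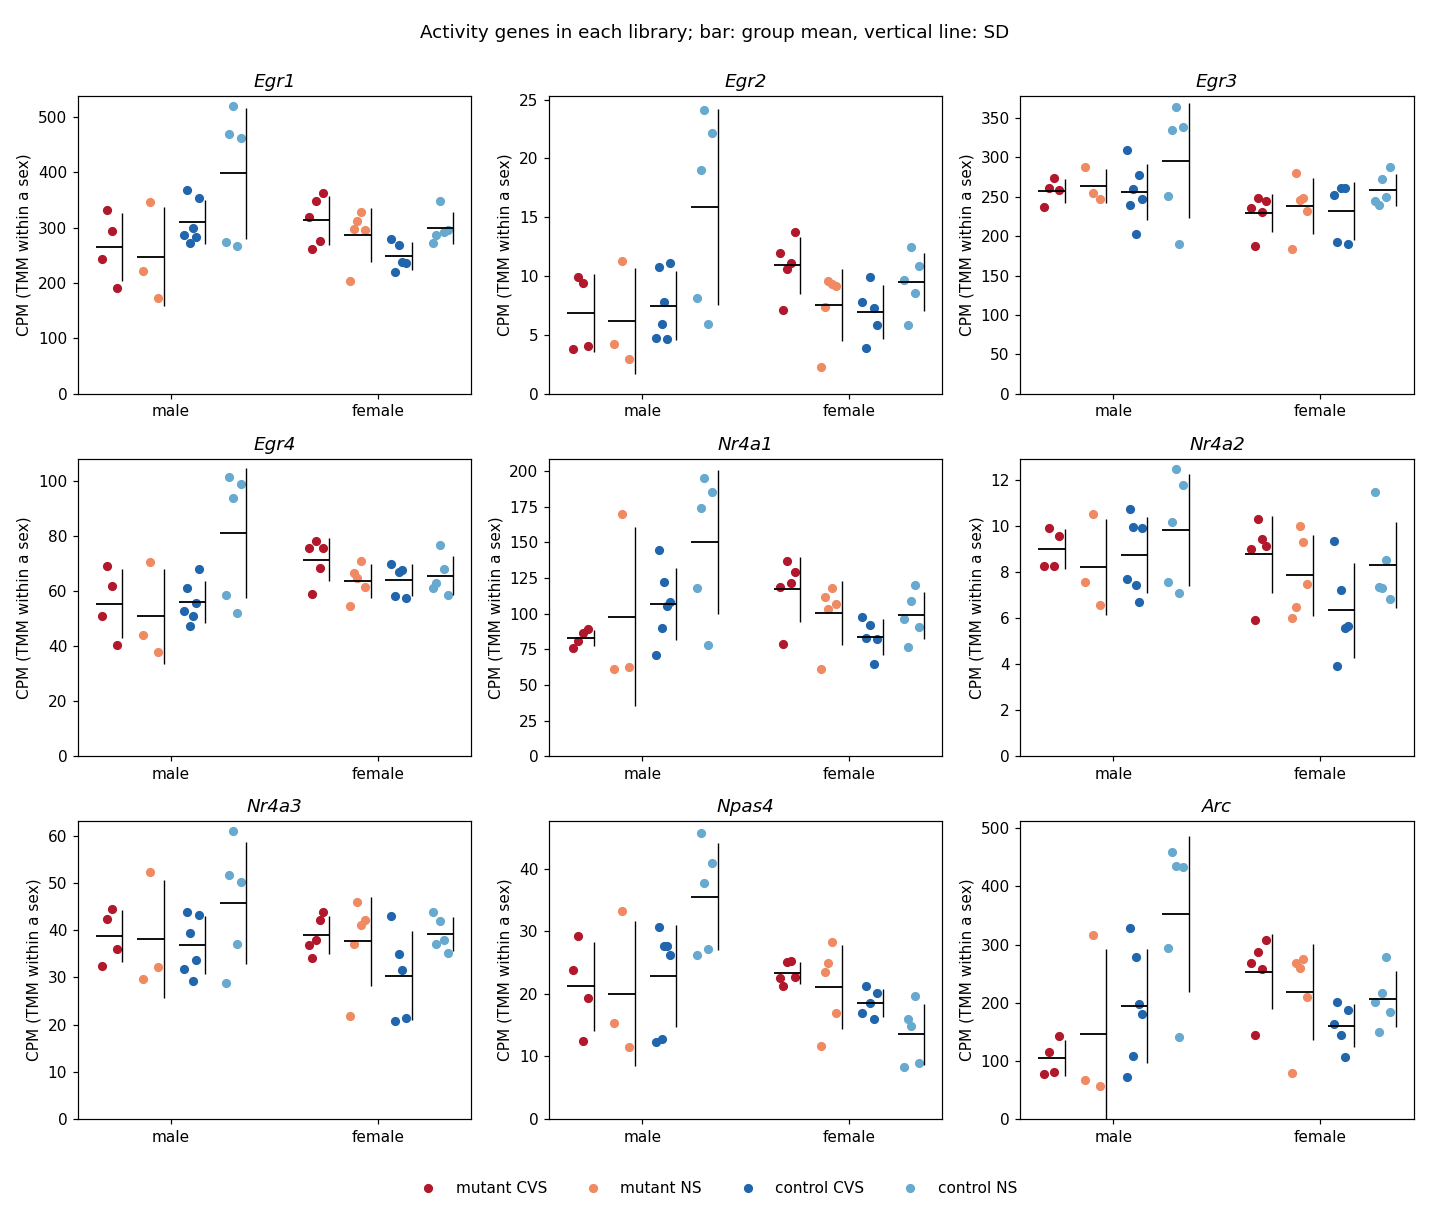
Level of each of the 9 genes in CPM (vertical axis, starting at 0, scaled by TMM within a sex) in every library, with males left and females right in each panel. Points are libraries coloured by group, horizontal bars are group means and vertical lines are SD. Male control NS libraries split into 3 high and 2 low ones for Egr1, Egr2, Egr4 and Nr4a2, and 1 male mutant NS library stands above the other 2 for Arc and Nr4a1.

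Male control CVS libraries were compared with male control NS libraries to ask what chronic stress does in controls. All 9 genes again had lower fitted values in stressed controls, with a median of -0.49 against 0.000264 over all genes, and none passed the test. This comparison uses the same 5 control NS libraries as the genotype comparison without stress, so the directions of the 2 are not independent. Egr2 had a lowest value of 4.68, a median of 6.84 and a highest value of 11.1 CPM over the 6 male control CVS libraries, against the control NS values above, a difference of -1.07 ± 0.445. Arc had a lowest value of 72.6, a median of 189.5 and a highest value of 329 CPM in male control CVS libraries, a difference of -0.86 ± 0.483. Each of the 6 stressed libraries lay below the control NS mean for both genes, and the groups overlapped at the low control NS libraries. Npas4 had a lowest value of 12.4, a median of 26.9 and a highest value of 30.7 CPM in male control CVS libraries, a difference of -0.63 ± 0.317. Egr4 averaged 56.0 ± 7.55 CPM in male control CVS libraries and 80.9 ± 23.6 CPM in male control NS libraries (SD, n = 6 and 5), a difference of -0.53 ± 0.212. Nr4a1 stood at -0.49 ± 0.289, Egr1 at -0.36 ± 0.218, Nr4a3 at -0.30 ± 0.199, Egr3 at -0.21 ± 0.146 and Nr4a2 at -0.16 ± 0.157. None of the 9 genes was called by edgeR's quasi-likelihood F test, Benjamini-Hochberg adjusted, with adjusted p from 0.644 to 0.868, against 0.0116% of 17212 genes. Egr2 and Egr4 had an unadjusted p under 0.05, as did 7.39% of all genes, and DESeq2 and limma voom called 0. Markers of astrocytes (0 of 8 positive, median -0.10), endothelial cells and pericytes (0 of 8 positive, median -0.18), meningeal fibroblasts (1 of 6 positive, median -0.27) and blood (0 of 5 positive, median -0.21) also had mostly negative fitted values, with none called and none of these markers at 0 throughout a group. Their summed levels overlapped, at 4298 to 4711 CPM in control CVS libraries and 4545 to 5053 CPM in control NS libraries for astrocytes, 288 to 334 CPM in control CVS libraries and 318 to 397 CPM in control NS libraries for vascular cells, and 54.4 to 146 CPM in control CVS libraries and 87.1 to 178 CPM in control NS libraries for blood. Their part in the result was not tested.

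Male mutant CVS libraries were compared with male mutant NS libraries to ask what stress does in mutants. The 9 genes had no common direction, with 6 positive and 3 negative fitted values and a median of 0.08 against 0.000246 over all genes. Arc had 77.6, 116, 81.5 and 143 CPM in the 4 male mutant CVS libraries, against the 3 mutant NS values above, a difference of -0.49 ± 0.623. The stressed mutants lay between the high mutant NS library and the other 2. Nr4a1 had 76.1, 81.1, 86.1 and 89.1 CPM in male mutant CVS libraries, against 60.9, 170.1 and 62.4 CPM in male mutant NS libraries, a difference of -0.24 ± 0.372. Mutant NS replicate 2 was again the high unstressed library, and without it the values turned to 0.76 for Arc and 0.43 for Nr4a1. In edgeR's quasi-likelihood F test, Benjamini-Hochberg adjusted, 0 of 9 genes were called, with adjusted p of 0.9997, against 0% of 17212 genes. At an unadjusted p under 0.05 there were 0 of 9, against 3.38% of all genes, and DESeq2 and limma voom called 0.

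Male mutant CVS libraries were also compared with male control CVS libraries. Arc had the largest difference of the 9 genes, averaging 104 ± 30.9 CPM in mutants and 194 ± 97.8 CPM in controls (SD, n = 4 and 6), which gave -0.90 ± 0.540 with a 95% interval of -2.05 to 0.26. All 4 mutant libraries were below the control mean, and 2 control libraries fell within the mutant range or below it. Nr4a1 followed at -0.36 ± 0.317 and Egr1 at -0.23 ± 0.236, while Egr2, Egr3, Egr4, Nr4a2, Nr4a3 and Npas4 lay between -0.13 and 0.07. In all, 6 were negative and 3 positive, with a median of -0.11 against -0.00229 over all genes. edgeR's quasi-likelihood F test, Benjamini-Hochberg adjusted, called 0 of 9, with adjusted p from 0.744 to 0.995, against 0.0523% of 17212 genes. None of the 9 had an unadjusted p under 0.05, against 7.62% of all genes, and DESeq2 and limma voom called 0.

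The interaction of genotype and stress in males asks whether stress changed the genes differently in mutants and controls. It was positive for all 9 genes, with a median of 0.37 against -0.00157 over all genes, the highest being Egr2 at 1.22 ± 0.756, Npas4 at 0.71 ± 0.527 and Egr4 at 0.65 ± 0.347. The same control NS libraries enter this term. edgeR's quasi-likelihood F test, Benjamini-Hochberg adjusted, called 0 of 9 (adjusted p of 0.995), against 0% of 17212 genes, 0 of 9 had an unadjusted p under 0.05 against 4.18% of genes, and DESeq2 and limma voom called 0. Leaving out mutant NS replicate 2 moved Arc to 1.62 and Egr2 to 2.01, and leaving out mutant NS replicate 1 took Nr4a1 to -0.00157 and mutant NS replicate 3 took Arc to -0.02.

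**Figure D3:**
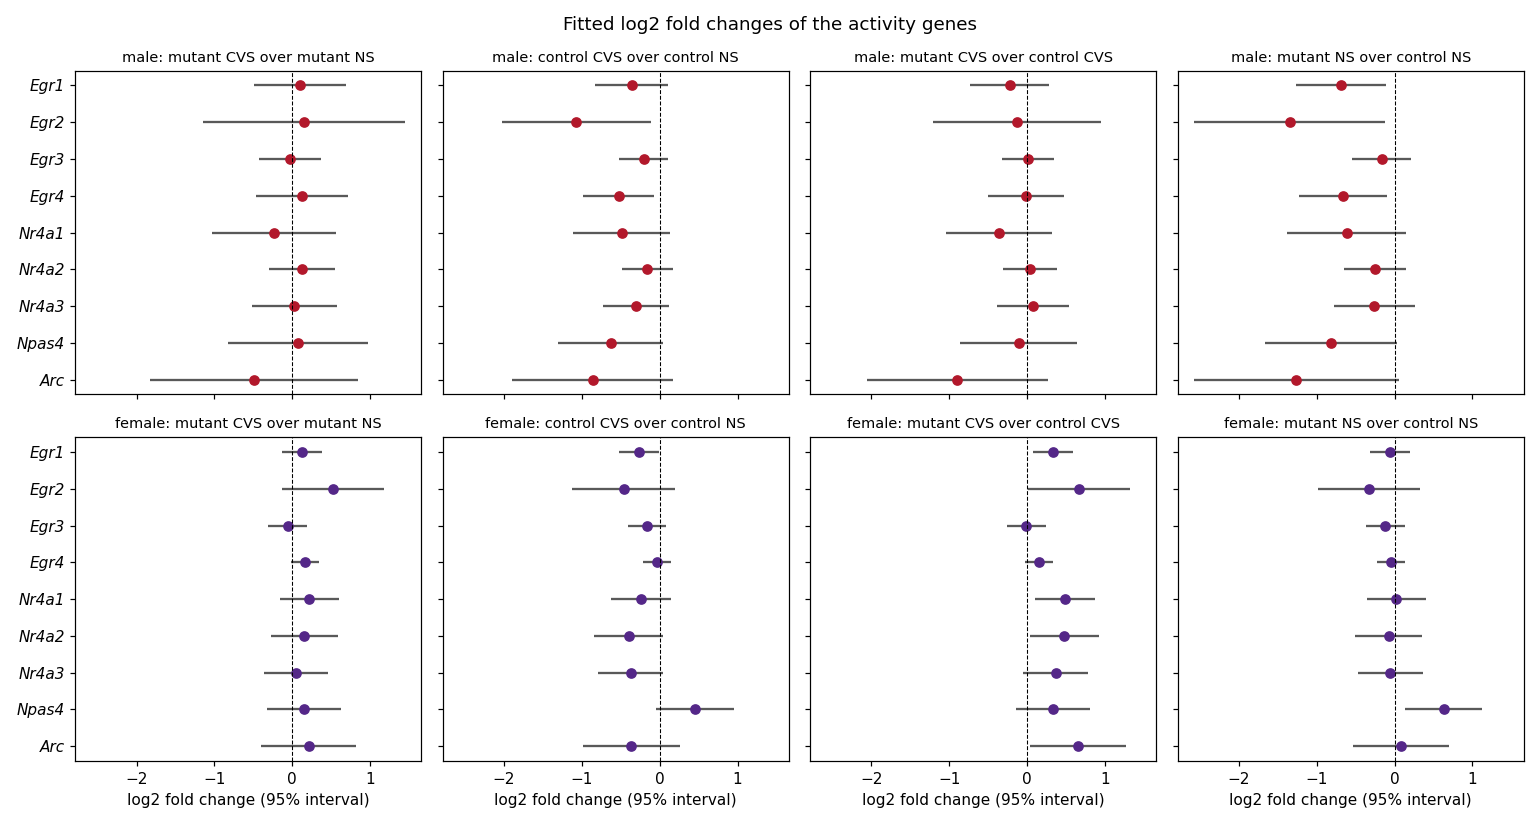
Fitted log2 fold change of each gene (horizontal axis, points) with its 95% interval (lines) in the 4 comparisons of a sex, males above and females below, and the dashed line at 0. In males all 9 points lie below 0 for control CVS over control NS and for mutant NS over control NS, which share the control NS libraries. In females 8 of 9 points lie above 0 for mutant CVS over control CVS. That comparison shares the control CVS libraries with female control CVS over control NS, where 8 of 9 points lie below 0.

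In females, mutant CVS libraries were compared with control CVS libraries, and 8 of 9 genes had higher fitted values in mutants. The median was 0.37 against -0.000483 over all genes, and none passed the test. The same female control CVS libraries also enter the comparison of stress in female controls and the female interaction. The directions of these comparisons are therefore not independent. Arc had 269, 144, 288, 258 and 308 CPM in female mutant CVS libraries, against 164, 201, 144, 107 and 188 CPM in female control CVS libraries, a difference of 0.66 ± 0.292. Raw counts of Arc were 5426, 3085, 5335, 7041 and 6069 in mutants and 3170, 4720, 2475, 2664 and 3695 in controls. Mutant replicate 2 was the low library and lay within the control range, and the other 4 mutants lay above every control. Nr4a1 had 119, 78.7, 137, 122 and 129 CPM in female mutant CVS libraries, against 97.4, 82.9, 91.8, 64.6 and 82.3 CPM in female control CVS libraries, a difference of 0.48 ± 0.181. The pattern was the same, with mutant replicate 2 alone among the controls. Egr1 had 318, 260.4, 348, 275 and 363 CPM in female mutant CVS libraries, against 279, 219.7, 269, 237 and 236 CPM in female control CVS libraries, a difference of 0.33 ± 0.123. Egr2 had 11.9, 7.13, 10.6, 11.1 and 13.8 CPM in female mutant CVS libraries, against 7.82, 3.87, 9.95, 7.29 and 5.85 CPM in female control CVS libraries, a difference of 0.66 ± 0.310. For Egr1 and Egr2 all 5 mutants lay above the control mean, and the ranges overlapped.

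Nr4a2 averaged 8.77 ± 1.67 CPM in female mutant CVS libraries and 6.34 ± 2.06 CPM in female control CVS libraries (SD, n = 5 each), a difference of 0.48 ± 0.210. Nr4a3 stood at 0.37 ± 0.198, Npas4 at 0.33 ± 0.227, Egr4 at 0.15 ± 0.0864 and Egr3 at -0.01 ± 0.118. edgeR's quasi-likelihood F test, Benjamini-Hochberg adjusted, called 0 of 9, with adjusted p from 0.615 to 0.992, against 0.0243% of 16435 genes tested. At an unadjusted p under 0.05 there were 5 (Egr1, Egr2, Nr4a1, Nr4a2 and Arc), against 7.08% of all genes, and DESeq2 and limma voom called 0. Because the 9 genes varied together between libraries, these 5 are not independent results. Without mutant CVS replicate 2 Arc was at 0.80 and Nr4a1 at 0.60, with adjusted p of 0.571 and 0.490. That library was the lowest mutant for both genes, so leaving it out enlarged the differences. Blood markers also had higher fitted values in mutants (5 of 5 positive, median 0.55), none called and none at 0 throughout a group, with sums of 58.0 to 182 CPM in mutant CVS libraries and 35 to 166 CPM in control CVS libraries, and their part in the result was not tested. Other lists did not share this direction. Oligodendrocyte and myelin markers had 0 of 8 positive (median -0.05), vascular and microglial markers 2 of 8 each (medians -0.03 and -0.02) and astrocyte markers 4 of 8, none called.

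Female mutant NS libraries against female control NS libraries gave small differences for 8 of the genes and a larger one for Npas4. Npas4 had 11.7, 23.5, 25, 28.3 and 17.0 CPM in female mutant NS libraries, against 8.37, 15.9, 14.8, 19.7 and 8.90 CPM in female control NS libraries. The difference was 0.63 ± 0.234 with a 95% interval of 0.14 to 1.13. Of the mutants, 4 of 5 lay above the control mean, replicate 1 being the low one, and 2 control libraries lay below every mutant. Arc had 79.1, 269, 260.3, 275 and 209 CPM in female mutant NS libraries, against 202, 149.6, 218, 279 and 184 CPM in female control NS libraries, a difference of 0.08 ± 0.290. Mutant replicate 1 was the lowest of the 10 libraries for Arc, and it lay below its group mean for all 9 genes. The other 7 genes ranged from -0.32 for Egr2 to 0.02 for Nr4a1. In all, 3 were positive and 6 negative, with a median of -0.05 against 0.00183 over all genes. edgeR's quasi-likelihood F test, Benjamini-Hochberg adjusted, called 0 of 9, with an adjusted p of 0.466 for Npas4, against 0.128% of 16435 genes. Npas4 alone had an unadjusted p under 0.05 (0.0158), against 8.07% of all genes, and DESeq2 and limma voom called 0. Without mutant NS replicate 1 the value of Npas4 was 0.78, with an adjusted p of 0.233. That library was the lowest mutant for Npas4, so leaving it out enlarged the difference.

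Female control CVS libraries against female control NS libraries gave lower fitted values for 8 of 9 genes, with Npas4 as the exception, and a median of -0.27 against 7.34e-05 over all genes. These control CVS libraries are those of the female genotype comparison under stress. Npas4 had 17.0, 21.3, 18.6, 15.9 and 20.1 CPM in female control CVS libraries, against the control NS values above, a difference of 0.45 ± 0.236. All 5 stressed libraries lay above the control NS mean, within a range that overlapped the highest of the unstressed ones. Egr1 averaged 248 ± 24.9 CPM in female control CVS libraries and 299 ± 29.1 CPM in female control NS libraries (SD, n = 5 each), a difference of -0.27 ± 0.123. Arc stood at -0.36 ± 0.292, Egr2 at -0.46 ± 0.313, Nr4a2 at -0.40 ± 0.210, Nr4a3 at -0.37 ± 0.197, Nr4a1 at -0.24 ± 0.181, Egr3 at -0.16 ± 0.118 and Egr4 at -0.03 ± 0.0867. edgeR's quasi-likelihood F test, Benjamini-Hochberg adjusted, called 0 of 9, with adjusted p from 0.554 to 0.935, against 0% of 16435 genes. Egr1 alone had an unadjusted p under 0.05, against 8.72% of all genes, and DESeq2 and limma voom called 0.

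In female mutant CVS libraries against female mutant NS libraries, 8 of 9 fitted values were positive, with a median of 0.15 against 0.000846 over all genes. Egr2 had the highest at 0.52 ± 0.307, Nr4a1 stood at 0.22 ± 0.179, Arc at 0.21 ± 0.289 and Egr4 at 0.16 ± 0.0865, and Egr3 was negative at -0.06 ± 0.118. Without mutant NS replicate 1, Egr2 was at 0.30, Nr4a1 at 0.09, Npas4 at 0.00206 and Arc at 0.000563. The interaction in females was positive for 8 of 9 genes, with a median of 0.42 against 0.00128 over all genes, the highest being Egr2 at 0.99 ± 0.439, and Npas4 was negative at -0.30 ± 0.326. edgeR's quasi-likelihood F test, Benjamini-Hochberg adjusted, called 0 of 9 in both, against 0% of 16435 genes in each, with adjusted p from 0.662 to 0.977 for stress in mutants and of 0.9999 for the interaction. Unadjusted p under 0.05 was reached by 0 of 9 for stress in mutants, against 7.91% of genes, and by 2 of 9 (Egr1 and Egr2) for the interaction, against 4% of genes, and DESeq2 and limma voom called 0 in both.

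Over all 38 libraries, the pooled stress difference was negative for 8 of 9 genes and the pooled genotype difference for 6 of 9. Arc had the largest value in both, at -0.37 ± 0.214 for stress and -0.35 ± 0.216 for genotype. edgeR's quasi-likelihood F test, Benjamini-Hochberg adjusted, called 0 of 9 for stress, against 0.017% of 17671 genes tested, and 0 of 9 for genotype, against 1.09%. Adjusted p ranged from 0.620 to 0.991 for stress and from 0.583 to 0.992 for genotype, no gene had an unadjusted p under 0.05 in either, against 9.37% and 11.2% of all genes, and DESeq2 and limma voom called 0. Of all alternatives tried, the one that gave the lowest adjusted p of any of the 9 genes was the pooled genotype fit without male mutant NS replicate 2, in which Arc stood at -0.67 ± 0.198 with an adjusted p of 0.0946 by edgeR. In no comparison of 2 groups did the libraries of any of the 9 genes separate without overlap. Over all genes, separation was seen in males for 0.825% (CVS in controls), 3.84% (mutants against controls, NS), 1.48% (mutants against controls, CVS) and 3.76% (CVS in mutants). In females it was seen for 1.44% (CVS in controls), 1.8% (mutants against controls, NS), 1.15% (mutants against controls, CVS) and 1.48% (CVS in mutants).

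The differences between the sexes were tested in the same model. For stress in controls, male minus female, Npas4 had the largest value at -1.08 ± 0.402, with Egr2 at -0.60 ± 0.548, Arc at -0.49 ± 0.564 and Egr4 at -0.49 ± 0.231, and 7 of 9 were negative. For genotype without stress, all 9 were negative, with Npas4 at -1.44 ± 0.448, Arc at -1.34 ± 0.633, Egr2 at -1.02 ± 0.618, Nr4a1 at -0.63 ± 0.380, Egr1 at -0.62 ± 0.278 and Egr4 at -0.61 ± 0.258. Both differences use the control NS libraries of each sex. edgeR's quasi-likelihood F test, Benjamini-Hochberg adjusted, called 0 of 9 in each, against 0% of 17671 genes in each, with an adjusted p for Npas4 of 0.62 for stress and 0.999 for genotype. Unadjusted p under 0.05 was reached by 2 of 9 for stress (Npas4 and Egr4), against 7.19% of genes, and by 4 of 9 for genotype (Egr1, Egr4, Npas4 and Arc), against 4.12% of genes, and DESeq2 and limma voom called 0.

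Within groups, most of the 9 genes moved together from library to library, with Egr3 and Npas4 in the weakest pairs. After the group mean was subtracted from log2 CPM, 6 of 18 male libraries and 4 of 20 female libraries had all 9 genes on one side of the mean, and 13 male and 10 female libraries had at least 8. In males, control NS replicates 2, 3 and 5 were above their mean for all 9 genes, and control NS replicates 1 and 4 and mutant NS replicate 3 were below it for all 9. In females, mutant NS replicates 3 and 4 were above for all 9, and mutant NS replicate 1 and mutant CVS replicate 2 were below for all 9. The largest single deviation was that of Arc in male mutant NS replicate 2, at 1.58, and the lowest that of Egr2 in female mutant NS replicate 1, at -1.51. Over the 36 pairs of genes Pearson's r had a median of 0.707 in males and 0.617 in females, the closest pair being Egr1 with Egr4 in males at 0.969 and Nr4a1 with Arc in females at 0.913. The lowest were Egr3 with Npas4 in males at 0.00478 and Nr4a2 with Npas4 in females at 0.0908. All genes of a library share its depth, dissection and RNA.

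**Figure D4:**
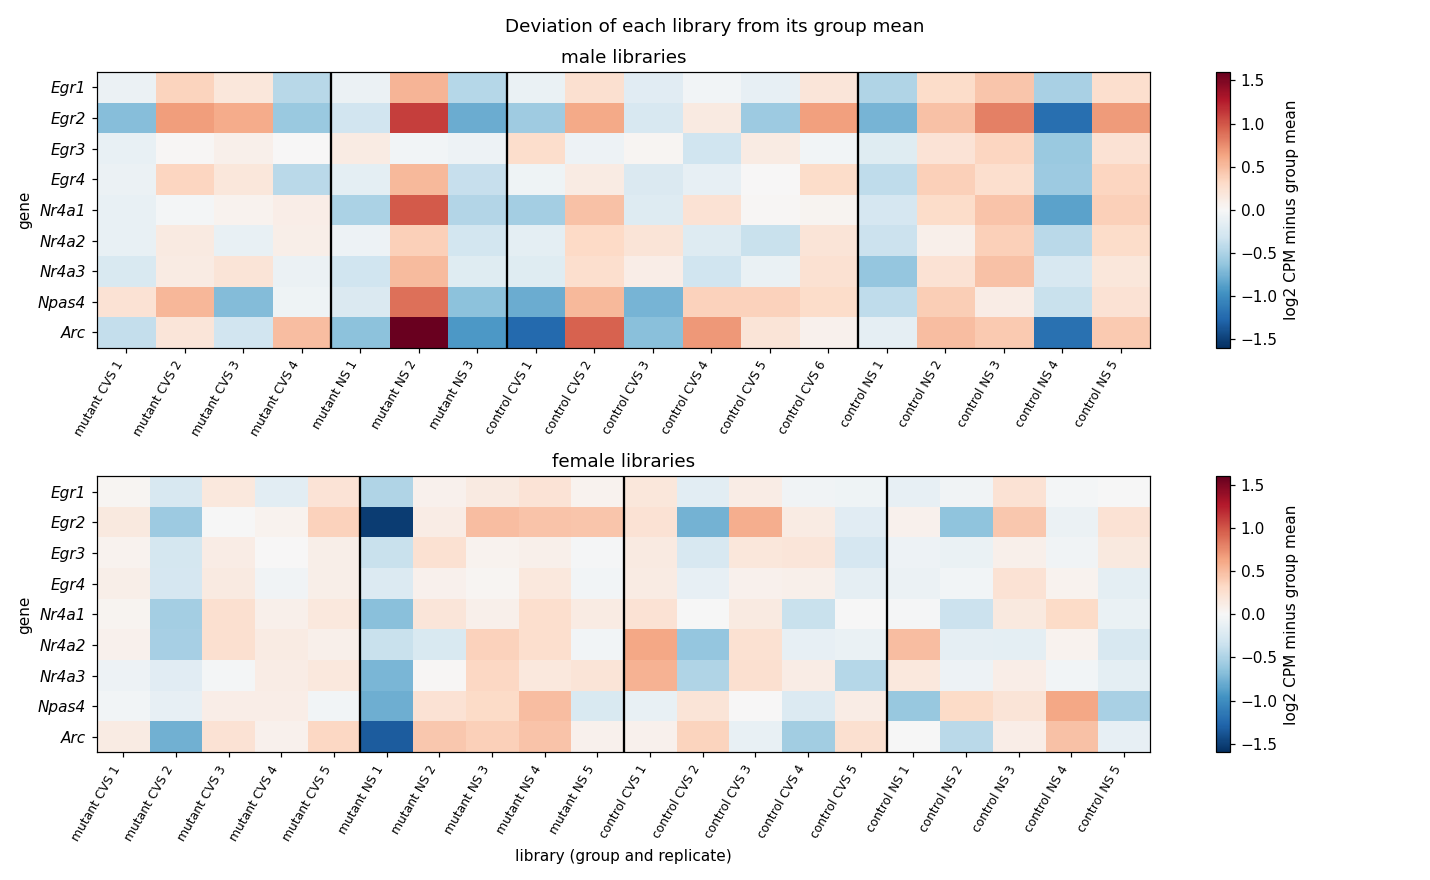
Deviation of each gene (rows) in each library (columns, grouped by the black lines) from its group mean, in log2 CPM by the colour scale (red above, blue below), for males above and females below. Columns of one colour are libraries in which all 9 genes deviate the same way, such as male control NS replicate 4 and female mutant NS replicate 1.

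Arc served as the common partner, and its relation to the other 8 genes was tested within groups in each sex (16 relations, permutation test with libraries permuted within groups, two-sided, Benjamini-Hochberg adjustment over the 16). Nr4a1 followed Arc most closely, with r = 0.943 and Spearman's rho = 0.920 in males (permutation adjusted p 0.00064 for r and 0.00096 for rho) and r = 0.913 and rho = 0.737 in females (permutation adjusted p 0.00224 and 0.0068). The relation held without the 2 libraries farthest from the median of Arc, at r = 0.915 in males and 0.799 in females. Npas4 was next in males with r = 0.837 and rho = 0.798 (permutation adjusted p 0.00309 and 0.00565), and 0.752 without those 2 libraries. In females Npas4 had r = 0.658 and rho = 0.740 (permutation adjusted p 0.015 and 0.00432), and 0.506 without them. In males Egr1, Egr2, Egr4 and Nr4a2 also passed the threshold with r of 0.639, 0.712, 0.620 and 0.618, and in females Egr1 and Egr4 with 0.694 and 0.532. By rho, male Egr1 (0.637, permutation adjusted p 0.0292) and Egr2 (0.606, 0.0442) passed as well. Male Egr4 (0.527, 0.0938) and Nr4a2 (0.531, 0.098) did not, nor did female Egr1 (0.450, 0.098) and Egr4 (0.405, 0.132).

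Egr3 had the weakest relation to Arc in males, with r = 0.133 and rho = 0.0155 (permutation adjusted p 0.617 for r), while Nr4a3 had 0.553 in males. Without the 2 libraries farthest from the median of Arc, male Egr3 had r = 0.379 and male Nr4a3 0.415. In females Egr2 had 0.633, Egr3 0.430, Nr4a2 0.385 and Nr4a3 0.415, none past the threshold. In all, 6 of 8 relations passed in males and 4 of 8 in females by Pearson's r. By Spearman's rho, 4 of 8 passed in males (Egr1, Egr2, Nr4a1 and Npas4) and 2 of 8 in females (Nr4a1 and Npas4). Without the 2 farthest libraries, which were control CVS replicate 1 and mutant NS replicate 2 in males and mutant CVS replicate 2 and mutant NS replicate 1 in females, 2 of 8 passed by r in males (Nr4a1 and Npas4) and 1 of 8 in females (Nr4a1). In females Egr1 then had r = 0.287 and Egr4 0.150, so their relations to Arc rest on those 2 libraries. The strength of a relation was not tested between the sexes.

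**Figure D5:**
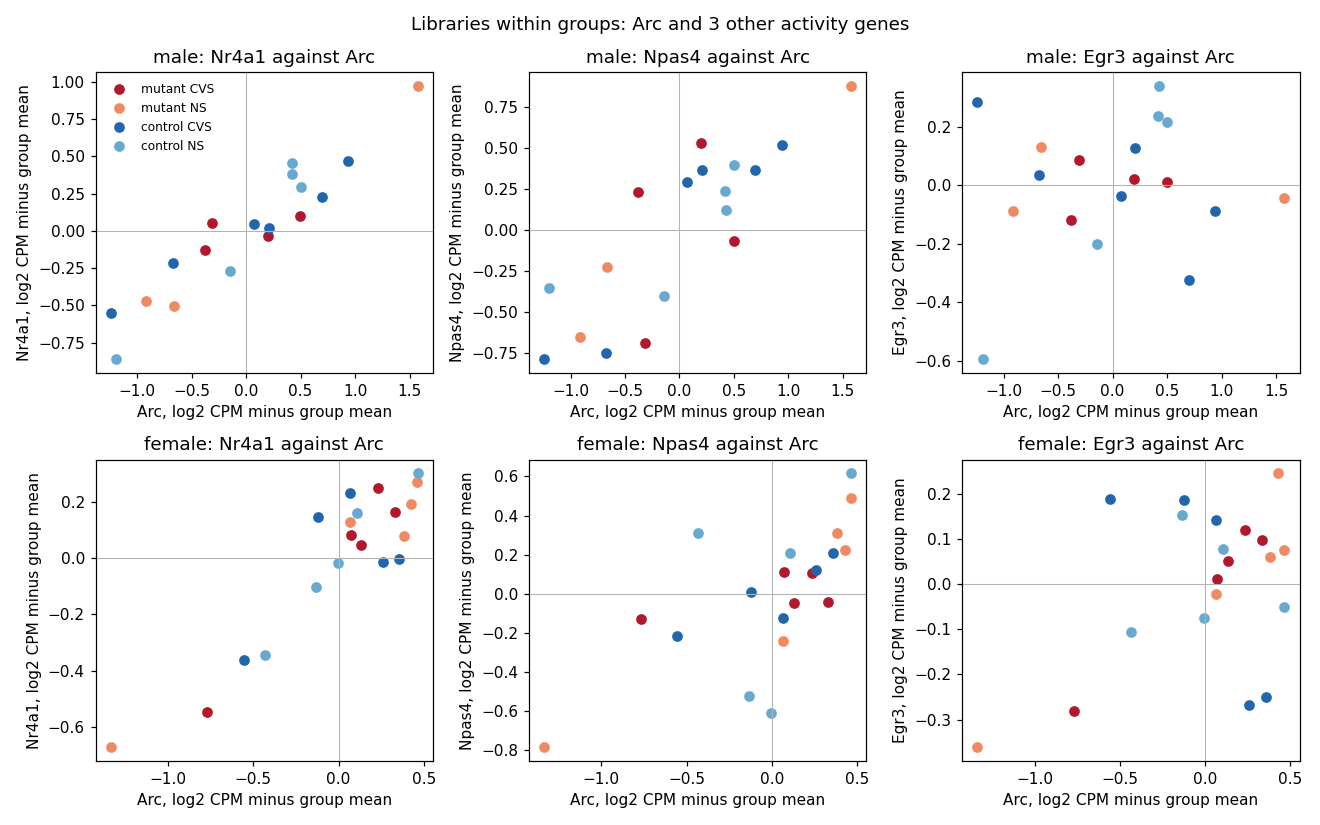
Deviation from the group mean in log2 CPM of Nr4a1, Npas4 and Egr3 (vertical axes) against that of Arc (horizontal axis), with 1 point per library coloured by group, males above and females below. Points of Nr4a1 lie along a line in both sexes (r = 0.943 and 0.913), and those of Egr3 scatter in males (r = 0.133). Without the 2 libraries farthest from the median of Arc, male Egr3 had r = 0.379.

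The same was asked of other gene lists, which were also chosen with earlier results of these data known. The 22 other rapid activity-induced genes had none called in any comparison. In male mutant NS libraries against male control NS libraries all 22 had lower fitted values (median -0.48), among them Fos at -1.07 ± 0.470, Fosb at -0.53 ± 0.227, Junb at -0.74 ± 0.387 and Jun at -0.14 ± 0.135, which encode subunits of the AP-1 factor. In male control CVS libraries against male control NS libraries 19 of 22 were lower (median -0.43). In female mutant CVS libraries against female control CVS libraries 19 of 21 tested had higher fitted values (median 0.21), with Fos at 0.53 ± 0.247, Fosb at 0.09 ± 0.126, Junb at 0.45 ± 0.168 and Jun at -0.13 ± 0.106. Within groups the summed level of the list followed Arc with r = 0.938 in males and 0.908 in females (rho = 0.922 and 0.758, permutation adjusted p 7e-04 and 0.00439 over 28 relations of 14 lists), and 0.897 and 0.727 without the 2 farthest libraries. Of the other activity-related lists, described below, none had a relation to Arc past the threshold by r or rho. In males and females, r was 0.227 and 0.630 for delayed genes, -0.513 and 0.321 for upstream factors, and 0.577 and 0.432 for partners.

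Of the 16 delayed activity-induced genes, Vgf, a secreted neuropeptide precursor, was lower in female mutants, at -0.43 ± 0.0476 without stress and -0.27 ± 0.0476 under stress (edgeR adjusted p 4.08e-06 and 0.0166). In males Vgf was called in neither genotype comparison. Its between-sex difference of genotype without stress was not called either, so a change limited to females was not shown. The pooled genotype fit averages the differences of both sexes. In the pooled genotype fit Vgf stood at -0.33 ± 0.0425 (edgeR adjusted p 2.63e-05), where Scg2, which encodes secretogranin, was also called at -0.12 ± 0.031 (edgeR adjusted p 0.049995). The others were not called in any comparison, and in that pooled fit Bdnf, a neurotrophin, was at -0.15 ± 0.0621, Homer1, a postsynaptic scaffold, at -0.11 ± 0.0757 and Nptx2, a synaptic pentraxin, at -0.09 ± 0.0657. The median of the 16 was -0.18 in female mutant NS against control NS libraries, with 0 positive, and -0.22 in male ones, with 2 positive. The 13 transcription factors upstream of activity genes had no member called and medians between -0.01 and 0.05, with Srf at -0.12 ± 0.0898, Creb1 at 0.04 ± 0.0571, Elk1 at 0.02 ± 0.0667 and Elk4 at -0.06 ± 0.0928 in male mutant NS against control NS libraries. Of the 10 partners and corepressors of the 9 genes, Cacng2, whose protein is an auxiliary AMPA receptor protein that binds Arc, was called in the pooled genotype fit at -0.10 ± 0.0249 (edgeR adjusted p 0.0267). Nab2, an Egr corepressor that Egr factors induce, stood at -0.46 ± 0.134 in male mutant NS against control NS libraries and at -0.30 ± 0.108 in male control CVS against control NS libraries, without passing the test, while Nab1 was at -0.05 ± 0.0776 and 0.01 ± 0.0639, Arnt2, the dimer partner of Npas4, at -0.02 ± 0.0389 and 0.04 ± 0.0322, and Arnt at -0.00253 ± 0.146 and 0.03 ± 0.120.

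The genes whose deviations were most like the mean of the 9 genes were listed by Pearson's r over the libraries of a sex, as a description. In males they were Fam222b (0.896), Gpr3 (0.879), Ubfd1 (0.878), Dnajb5 (0.874) and Fosb (0.872) over 18 libraries. In females they were Fos (0.906), Irs2 (0.90), Spry4 (0.888), Sowahb (0.883) and Ier5 (0.880) over 20 libraries. An r of at least 0.8 was reached by 24 of 17203 other genes in males and 26 of 16426 in females, and an r of -0.8 or lower by 10 and 3. Of the 9 genes themselves, Egr1 was closest to that mean, at 0.943 in males and 0.925 in females, and the farthest were Egr3 in males, at 0.518, and Npas4 in females, at 0.550, each being part of the mean it was set against.

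Marker lists of cell types were set beside Arc within groups in the same family of 28 relations. In females the summed level of the 8 microglial markers moved against Arc, with r = -0.690 and rho = -0.686 (permutation adjusted p 7e-04 and 0.00742) and -0.732 without the 2 farthest libraries. All 8 were detected, summing to 378 to 439 CPM in mutant CVS, 367 to 402 CPM in mutant NS, 382 to 444 CPM in control CVS and 393 to 430.4 CPM in control NS libraries. In males the same list had r = 0.165. In males the 8 striatal markers moved with Arc, with r = 0.732 and rho = 0.701 (permutation adjusted p 0.0405 and 0.0304) and 0.564 without the 2 farthest libraries. They summed to 135 to 146 CPM in mutant CVS, 127 to 144 CPM in mutant NS, 128 to 142 CPM in control CVS and 124 to 132 CPM in control NS libraries, and 1 of the 8 was at 0 in all mutant NS libraries. The 6 meningeal fibroblast markers in males had r = -0.535 and rho = -0.709 (permutation adjusted p 0.0405 and 0.0122), with -0.517 without the 2 farthest libraries. Their sums overlapped between groups, at 36.3 to 100.4 CPM in mutant CVS, 55.7 to 69.7 CPM in mutant NS, 34.8 to 70.7 CPM in control CVS and 52.5 to 78.6 CPM in control NS libraries. The remaining relations to marker lists, those of the olfactory markers included (r = -0.120 in males and -0.05 in females), had a permutation adjusted p of 0.0591 or higher for r, and the part of any cell type in the levels of the 9 genes was not tested. In the pooled genotype fit the called markers included Sst of interneurons at 0.19 ± 0.0336 and the astrocytic Slc1a2 at -0.10 ± 0.0244 and S100b at -0.14 ± 0.0275 (edgeR adjusted p 0.00143, 0.0354 and 0.00166). The interneuron list as a whole had 3 of 9 positive, median -0.05 in that fit, and the astrocyte list 0 of 8 positive, median -0.07.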

How the data were processed

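RNA of the medial prefrontal cortex was sequenced with a directional library kit, per the labels' protocols. The authors deposited raw read counts per gene ID for 38 libraries. fastp 0.23.2, STAR 2.7.10b, featureCounts and the GRCm39 build are named in the submitters' processing notes, while the sources used here give neither annotation release nor strand setting. Groups were taken from the labels, each library being a separately named animal. The 9 genes and all gene lists were chosen with earlier results of these data known.

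Genes were kept by edgeR's filterByExpr (minimum count 10, total 15) and counts scaled by TMM. Differences were fitted by edgeR 4.0.16's robust quasi-likelihood test on all genes, with 4 groups per sex, and with 8 groups for pooled and between-sex differences. P-values were adjusted by Benjamini-Hochberg over all genes tested, with a threshold of 0.05. CPM and log2 CPM (prior count 2) were computed here from the counts, and levels per kb use GENCODE vM21 exon lengths. Correlations within groups used deviations from the group mean and 100000 permutations within groups. Limma 3.58.1 and DESeq2 1.42.0 were run in R 4.3.3 as alternatives, as were another scaling, no filter, other sets of libraries and each library left out. Figures were drawn with matplotlib 3.10.9 in Python 3.11.15. Scripts were tested on simulated data. All 9 genes are named. The first 4 genes of each of the 4 activity-related lists are named, together with list genes past the threshold, and the 5 genes most like the 9 in each sex. Marker lists are given as sums. The targeted gene and 1 called marker are not reported here. Reads of a gene and an overlapping one could be split by the counting. In GENCODE vM21 none of the 9 genes overlaps another gene, but overlap in the annotation used for the counting could not be checked.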

Additional observations from a re-analysis of the deposited data

Results flagged for a closer look

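Egr1 in female mutant NS replicate 1 stood at 203.1 CPM, far below the other libraries of its group, which spanned 294.7 to 328.1 CPM. Nr4a1 in the same library stood at 61.3 CPM, against 103.4 to 118.1 CPM in the others of its group. These were the 2 such cases among 63 sets of a gene and a group, where chance alone would single out about 5% of the sets. The male mutant NS group, with 3 libraries, was too small for this screen and was left out of it. Arc in its replicate 2 stood at 316 CPM, against 66.9 and 56.1 CPM in its other libraries. Separately, 72 pairs of stress or genotype effects, within a sex or between the sexes, were compared for opposite directions, and 1 was singled out. It was Npas4, with every control CVS library below the control NS mean in males and above it in females. The log2 ratio of mean CPM, control CVS over control NS, was -0.635 in males and 0.457 in females. The difference between the sexes was tested in the 8-group fit and gave -1.08 ± 0.402, with an adjusted p of 0.620 by edgeR's quasi-likelihood test.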

How the results depend on the processing

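No member was called in any of 326 alternative fits. Of 2934 recomputed values for the 9 genes, 2814 kept their direction and 120 did not, 109 of them with 1 library left out, and the cause was not tested. With the 3 male libraries of high Cdhr1, an olfactory bulb marker, left out (mutant NS replicates 2 and 3 and control CVS replicate 1), Nr4a1 was at 0.45 and Arc at 0.64 for male stress in mutants, Nr4a1 at 0.00686 for pooled stress, Nr4a3 at -0.0690 and Npas4 at -0.12 for pooled genotype, and Egr3 at 0.0836 for the between-sex difference of genotype without stress. With limma voom, Nr4a1 was at -0.000132 and Arc at -0.0178 for female genotype without stress, Npas4 at -0.00619 for pooled genotype, and Egr3 at 0.00932 and 0.0147 for the between-sex differences of stress and genotype. Without the 2 libraries farthest from the median of Arc, 2 relations to Arc passed by r in males, against 6 with all libraries, and 1 in females, against 4 with all, and female Egr3 and Nr4a3 turned to r = -0.158 and -0.109. With 1 library left out at a time, the values of some genes crossed 0. For male, stress in mutants, the range was -0.10 to 0.42 for Egr1, -0.18 to 0.94 for Egr2, -0.0756 to 0.0310 for Egr3, -0.0478 to 0.43 for Egr4, -0.49 to 0.43 for Nr4a1, -0.0120 to 0.35 for Nr4a2, -0.13 to 0.33 for Nr4a3, -0.20 to 0.66 for Npas4 and -0.87 to 0.76 for Arc. For male, genotype under stress, the range was -0.36 to 0.0677 for Egr2, -0.0481 to 0.0717 for Egr3, -0.14 to 0.12 for Egr4, -0.0251 to 0.11 for Nr4a2, -0.00243 to 0.15 for Nr4a3 and -0.31 to 0.0784 for Npas4. For male, interaction of genotype and stress, the range was -0.00157 to 0.92 for Nr4a1 and -0.0161 to 1.62 for Arc. For female, stress in controls, the range was -0.0711 to 0.0299 for Egr4. For female, stress in mutants, the range was -0.14 to 0.00837 for Egr3 and -0.0928 to 0.13 for Nr4a3. For female, genotype without stress, the range was -0.11 to 0.0438 for Egr1, -0.0855 to 0.0192 for Egr4, -0.0571 to 0.15 for Nr4a1, -0.18 to 0.0666 for Nr4a2, -0.14 to 0.0876 for Nr4a3 and -0.0148 to 0.29 for Arc. For female, genotype under stress, the range was -0.0772 to 0.0506 for Egr3. For both sexes, stress pooled, the range was -0.11 to 0.00976 for Egr4 and -0.0575 to 0.16 for Npas4. For both sexes, genotype pooled, the range was -0.00725 to 0.0944 for Nr4a2, -0.0441 to 0.0716 for Nr4a3 and -0.14 to 0.0794 for Npas4. For male minus female, stress in controls, the range was -0.20 to 0.0257 for Egr1, -0.16 to 0.0463 for Egr3 and -0.0553 to 0.23 for Nr4a3. For male minus female, genotype without stress, the range was -0.16 to 0.0459 for Egr3. Counts over all genes also moved. DESeq2 called 23 genes for male stress in controls, against 2 by edgeR, no filter gave 118 against 21 for female genotype without stress, and the pooled genotype count lay between 93 and 299 against 193. No paired analysis was possible because the titles carry animal names that are unique to each library and no replicate numbers shared between groups. Depth limits the genes of lowest count, Egr2 and Nr4a2, and the male mutant NS group has the fewest libraries, 3.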
